A study of Rattus norvegicus with 8 samples.

Results

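The genes of antigen presentation and of the interferon response were measured with 105 probes, carrying 79 of the 35561 gene names, out of 41012 probes on a whole-genome rat oligonucleotide array. Probes were taken by a rule on their names. The names are those of RT1 genes, of the Irf, Stat, Ifi, Ifit, Oas and Gbp families, and Mx1, Mx2, B2m, Cd74, Psmb8, Psmb9, Psmb10, Tap1, Tap2, Tapbp and Tapbpl. RNA came from the medial thalamus of 8 male Sprague-Dawley rats that all received urethane and an inflatable tracheal cuff. In the 4 rats of the occlusion group the cuff blocked 2 to 4 breaths at a time, was released for 15 breaths or more, and was worked in this way for 10 min, with the brain taken straight afterwards. The 4 surgical controls carried a cuff that stayed deflated and gave their brains 70 min after setup. The animals' age was not found in the labels, and time under anaesthesia and occlusion cannot be told apart. Each array compared 1 animal, labelled with Cy5, with a pool of all 8 animals in Cy3, without a dye swap. Each value below is therefore a log2 ratio of an animal to that pool and not an absolute level. The pool held the same animals, so a value on the same side in every animal is not a difference between animals. A dye effect of single probes was not tested. Where 4 values are given for a group, they are those of animals 1 to 4 in that order.

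RT1 is the rat major histocompatibility complex. Its class I molecules, a heavy chain paired with beta-2-microglobulin, show peptides from inside the cell that the immunoproteasome cuts and the Tap transporter carries into the endoplasmic reticulum. Class II molecules show peptides from ingested material, are chaperoned by the invariant chain Cd74, and in brain are found mainly on microglia and on macrophages at its borders. Interferons act through STAT proteins and interferon regulatory factors to raise many of these genes together with antiviral effectors such as the Oas, Ifit, Mx and Gbp families. In a healthy brain most of the effectors are low.

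The arrays gave a median Cy5 signal 3.65 to 4.67 times the local background, and 68.3% to 80.2% of spots were well above background, with control 1 the lowest and control 3 the highest. Control 3 stood apart from the other animals. Of all tested probes with values in every animal, 23.0% were highest in control 3 and 22.4% were lowest there. Its log2 ratios correlated at a median of -0.11 with those of the other 7 arrays, against 0.20 to 0.37 for the others. Markers of thalamic relay neurons averaged -2.14 in control 3 and -0.28 to 0.24 in the other animals, and cortical markers averaged 1.43 against -0.88 to -0.74, which goes against the tissue named on its label. Where a result below turned or moved by much without control 3, the value without it is given too. In tissue RNA, fewer cells of a type and less RNA per cell cannot be told apart.

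Promoters of some class II genes highest in control 3 and of some interferon-induced genes highest in control 1 are shown first. They were chosen after those values were seen. In other animals the interferon-induced genes parted, and a link between shared letters and shared values was not tested. They are 250 bases before the gene start, 5′ to 3′ in the direction of the gene, from RefSeq (GRCr8). Of 76 member symbols, 66 had a promoter in that table. In the class II promoters the capitals mark the X1 box and the Y box letters ATTGG, searched on both strands, at which the class II regulators RFX and NF-Y are known to bind. The windows are RT1-Da (chr20:4515165-4515414, plus strand), RT1-Bb (chr20:4604119-4604368, minus strand) and RT1-Db1 (chr20:4560163-4560412, minus strand).
RT1-Da: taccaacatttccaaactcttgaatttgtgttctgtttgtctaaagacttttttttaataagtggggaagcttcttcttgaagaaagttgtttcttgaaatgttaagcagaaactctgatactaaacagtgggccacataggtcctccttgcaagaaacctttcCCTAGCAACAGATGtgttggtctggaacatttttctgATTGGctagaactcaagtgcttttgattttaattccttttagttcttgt
RT1-Bb: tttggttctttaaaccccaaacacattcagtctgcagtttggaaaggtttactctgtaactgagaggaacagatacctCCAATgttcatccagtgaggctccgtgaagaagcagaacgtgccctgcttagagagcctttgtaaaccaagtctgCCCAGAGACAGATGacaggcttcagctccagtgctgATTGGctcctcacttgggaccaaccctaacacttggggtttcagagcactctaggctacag
RT1-Db1: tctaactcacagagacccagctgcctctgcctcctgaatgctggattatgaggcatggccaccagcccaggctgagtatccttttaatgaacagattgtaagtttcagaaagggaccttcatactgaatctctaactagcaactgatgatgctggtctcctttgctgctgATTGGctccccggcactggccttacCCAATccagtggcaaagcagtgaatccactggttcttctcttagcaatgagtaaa

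In RT1-Da and RT1-Bb the X1 letters began 86 and 97 bases before the start, and a Y box followed at 49 and 61 bases. The X1 letters were found in 3 of 7 class II promoters (RT1-Da, RT1-Bb and RT1-DOb), in 4 of 66 member promoters and in 0.0508% of all 33469 promoters. All 7 class II promoters held a Y box, a short motif that 34% of all promoters hold. RT1-Db1 had a Y box on each strand and no X1 match, which says only that those letters are not in this window. Cd74, which was also highest in control 3, had a Y box and no X1 match.

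For the interferon-induced genes the capitals mark the core of the interferon-stimulated response element, GAAA repeated after any 2 bases, on either strand. The windows are Oas1a, the current symbol of the probe called Oas1 (chr12:41330216-41330465, plus strand), Oas1i (chr12:41284976-41285225, plus strand), Irf7 (chr1:205800024-205800273, minus strand) and Ifi44 (chr2:243303841-243304090, minus strand).
Oas1a: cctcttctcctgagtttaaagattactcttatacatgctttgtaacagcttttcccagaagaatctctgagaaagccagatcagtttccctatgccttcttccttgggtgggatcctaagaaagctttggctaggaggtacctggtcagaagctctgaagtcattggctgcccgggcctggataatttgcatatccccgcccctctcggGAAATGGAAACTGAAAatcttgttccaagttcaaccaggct
Oas1i: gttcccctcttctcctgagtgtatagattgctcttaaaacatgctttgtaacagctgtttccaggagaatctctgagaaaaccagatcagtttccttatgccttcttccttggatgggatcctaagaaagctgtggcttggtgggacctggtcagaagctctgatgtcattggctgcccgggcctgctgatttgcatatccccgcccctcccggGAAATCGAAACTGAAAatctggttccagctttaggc
Irf7: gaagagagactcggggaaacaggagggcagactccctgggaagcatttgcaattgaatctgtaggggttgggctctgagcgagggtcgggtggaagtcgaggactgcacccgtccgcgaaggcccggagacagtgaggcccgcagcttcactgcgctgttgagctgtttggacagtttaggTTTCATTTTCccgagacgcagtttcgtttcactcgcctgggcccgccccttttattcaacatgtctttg
Ifi44: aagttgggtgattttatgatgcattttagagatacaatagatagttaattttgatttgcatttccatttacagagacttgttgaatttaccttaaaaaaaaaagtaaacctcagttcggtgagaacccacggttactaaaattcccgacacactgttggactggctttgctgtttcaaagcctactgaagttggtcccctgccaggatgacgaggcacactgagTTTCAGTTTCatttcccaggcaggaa

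The neighbouring genes Oas1a and Oas1i each held a pair of overlapping cores close to the start, beginning 41 and 35 bases before it in Oas1a and 36 and 30 bases in Oas1i. Irf7 and Ifi44 held 1 core each on the reverse strand. Oasl2, Ifit3 and Gbp2 also held a core, and control 1 was not their highest animal. The core was found in 13 of 20 effector promoters, in 5 of 8 promoters of peptide supply genes (B2m, Psmb10, Tap1, Tap2 and Tapbp), in 2 of 19 class I promoters, in 0 of 7 class II promoters and in 3.41% of all promoters. The core of the gamma-activated site, TTCNNNGAA, which STAT dimers bind, was in 9 of 66 member promoters and in 7.67% of all promoters.

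Of the 105 probes, 85 for 66 names were well above background on at least 4 of the 8 arrays and were tested. Occlusion left these genes without a difference that passed the test. At an adjusted p under 0.05 (limma, Benjamini-Hochberg over 31653 probes) 0 of 85 members passed, as did 0% of all probes, with a smallest adjusted p of 0.975. The members' log2 differences, occlusion minus control, ran from -0.39 to 0.40 with a median of -0.01, and their median size of 0.07 was below their median standard error of 0.12. Over all tested probes the median size was 0.08 and the median standard error 0.11.

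At an unadjusted p under 0.05 there were 3 members, RT1-CE12, Stat5a and Irf7, or 3.53% against 3.1% of all probes. Of these, 2 were higher under occlusion, where 1.73% of all probes were, and 1 was lower, where 1.37% were. The groups of animals did not overlap in 2 members, or 2.35%, against 2.51% of all probes. Stat5a was on the higher side, with a background of 1.22%, and Irf7 on the lower side, with a background of 1.28%. Differences of any size were positive in 36 of 85 members, or 42.4%, and in 50.6% of all probes. That balance turned with the setting: 46 of 85 (54.1%) were positive without control 3, 53 of 85 (62.4%) with array weights and 48 of 84 (57.1%) on the first slide, against 49.9%, 49.5% and 50.7% of all probes. Without control 3, 5 members had an unadjusted p under 0.05, or 5.88%, against 3.29% of all probes. They were Irf7 and Mx2, lower, and RT1-Da, RT1-Db1 and RT1-M6-2, higher. Without occlusion 1 there was 1, or 1.18%, against 2.28% of all probes, and without control 4 there was 1 against 2.63%.

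**Figure D1:**
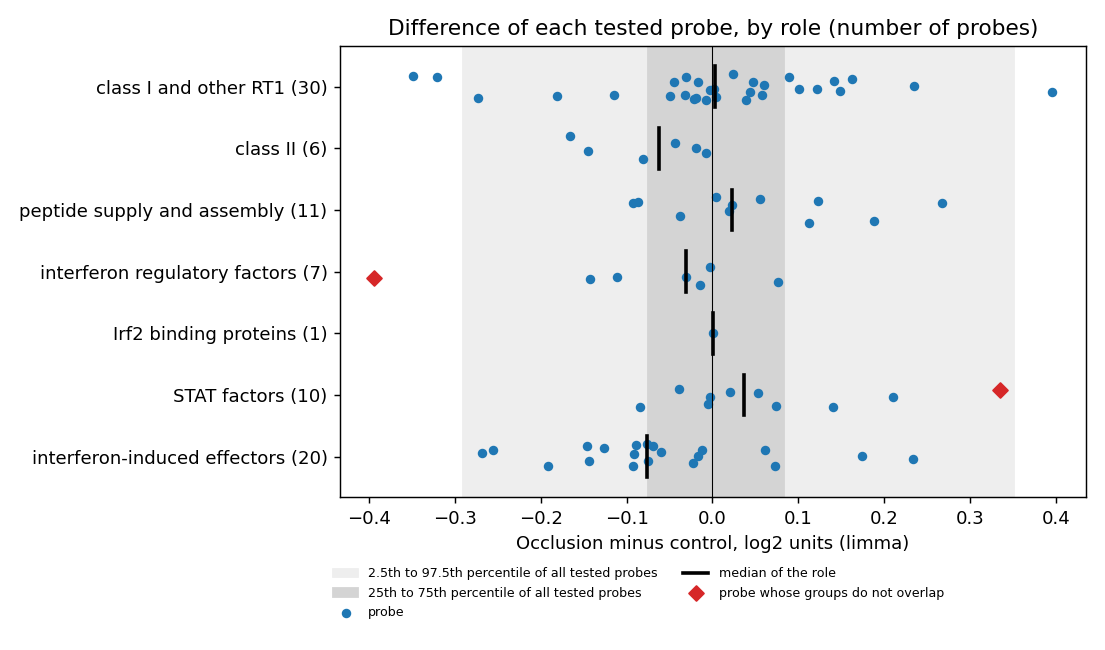
Log2 difference, occlusion minus control, of each of the 85 tested probes (points) by role, with the median of each role (black bars) and bands that hold the middle of all 31653 tested probes. Most points lie inside the wide band, from -0.29 to 0.35, and the red diamonds mark Irf7 and Stat5a, whose groups do not overlap.

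The members differed in how far the 8 animals were spread. The standard deviation over the 8 animals of the median class II probe stood at the 93.1st percentile of all tested probes, and that of the median effector probe at the 82.1st percentile. These figures include control 3, where the class II probes averaged 0.84 against -0.40 to -0.02 in the other animals. The percentiles without control 3 were not computed. The median class I probe was at the 50.4th percentile and the median interferon regulatory factor at the 42.6th.

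**Figure D2:**
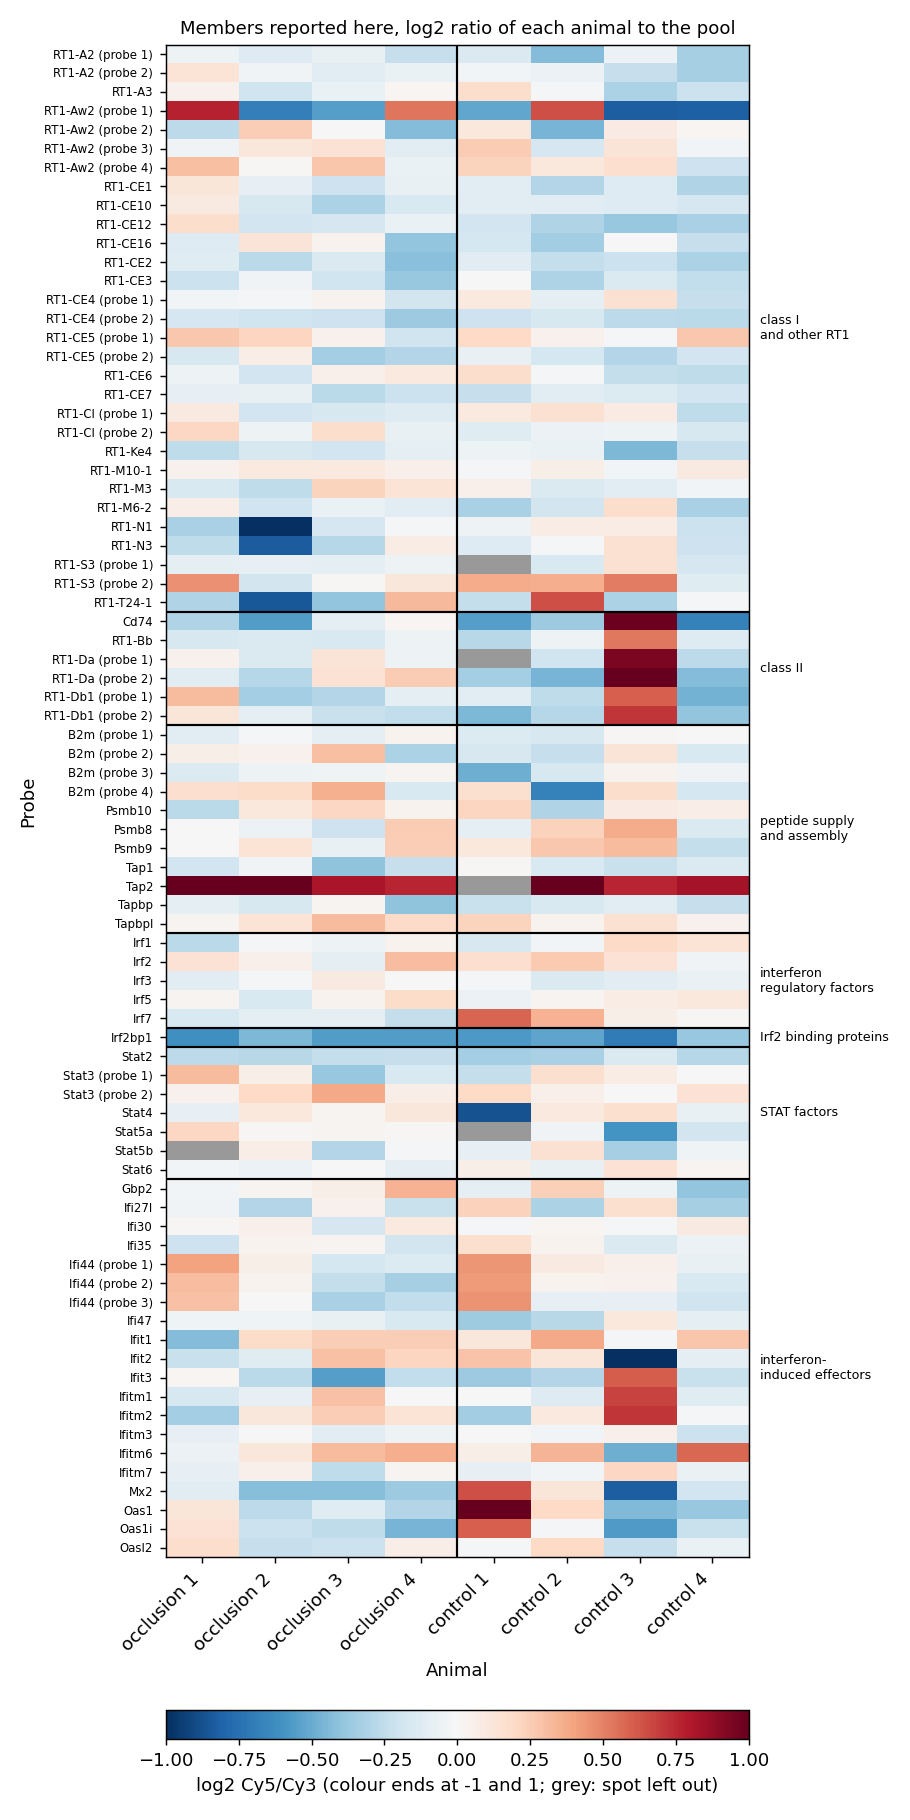
Log2 ratio to the pool of the tested probes reported here (lines, grouped by role) in each animal (columns); red is above the pool, blue below, grey a spot that was left out. Control 3 is red across class II, control 1 is red at Oas1, Mx2 and Irf7, and RT1-Aw2 (probe 1) alternates between strong red and strong blue.

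Class I heavy chains and other RT1 genes contributed 30 tested probes for 22 names. In the occlusion group 16 stood higher and 14 lower, and the median log2 difference was 0.0026. Most of these genes are close relatives in sequence, so a probe can bind transcripts of several of them and the name given to each is uncertain. RT1-CE12, a class I gene, had log2 ratios of 0.18, -0.19, -0.17 and -0.07 in the occlusion animals against -0.19, -0.30, -0.38 and -0.32 in the controls. Its highest value was in occlusion 1 and the groups overlapped only at occlusion 2 and control 1, both at -0.19. The difference was 0.24 with a standard error of 0.10 and an unadjusted limma p of 0.0373 (exact permutation p = 0.0571). It was 0.34 on the first slide and 0.13 on the second, and without control 3 it was 0.21. Without occlusion 1 it was 0.16, and its unadjusted limma p was under 0.05 in neither case. Next by p came RT1-Cl, whose brighter probe differed by 0.16 and whose dimmer probe by -0.12.

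RT1-A2, a classical class I gene whose product presents peptide to cytotoxic T cells, differed by 0.12 and 0.14 with its 2 probes, each with a standard error of 0.10. RT1-A3, close to background and above it on only 4 arrays, differed by 0.04. RT1-A1 was matched to none of the member probes, and probes with names outside the rule were not searched for it. RT1-Ke4 is caught by the name but is the zinc transporter now called Slc39a7, which lies in the complex without being a presenting molecule, and it differed by 0.02, or by -0.06 without control 3.

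RT1-Aw2, a class I gene name carried by 4 tested probes, showed the widest spread between animals in this role. The probe present in 10 spots per array, at chr20:5059401-5059470 (rn3), gave log2 ratios of 0.77, -0.69, -0.55 and 0.54 in the occlusion animals against -0.52, 0.65, -0.82 and -0.82 in the controls. Occlusion 1, occlusion 4 and control 2 were high and the other 5 animals low, with no value between -0.52 and 0.54. The 7 to 10 usable spots of this probe on an array agreed to a standard deviation of 0.04 to 0.12. The Cy5 intensity on its own showed the same arrangement, at 9.36, 7.94, 7.90 and 9.05 in the occlusion animals against 7.96, 9.27, 7.77 and 7.78 in the controls on the log2 scale. Here and below, that intensity comes from the same spots and is part of the ratio, so it is not a separate measurement. Both groups held high and low animals, so the difference of 0.40 had a standard error of 0.42.

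The other RT1-Aw2 probes did not repeat this. A second probe, placed on unassigned sequence of chromosome 20, gave -0.26, 0.25, -0.00070 and -0.43 in the occlusion animals against 0.10, -0.46, 0.08 and 0.02 in the controls, so that occlusion 1, occlusion 4 and control 2 were here the lowest. The same animals were lowest on the third probe at chr20:3412697-3412760, by less, with -0.03, -0.11 and -0.17 against -0.03 to 0.26 elsewhere. Occlusion 4 and control 4 were lowest on the fourth, at chr20:2870412-2870471. Their differences between groups were -0.05, -0.02 and 0.06.

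RT1-N1, RT1-N3 and RT1-T24-1, nonclassical class I genes, were each lowest in occlusion 2. RT1-N1 had -0.33, -1.01, -0.17 and -0.01 in the occlusion animals against -0.05, 0.07, 0.08 and -0.22 in the controls. RT1-N3 had -0.25, -0.83, -0.29 and 0.08 in the occlusion animals against -0.13, -0.02, 0.15 and -0.21 in the controls. In both, occlusion 2 lay well below the other 7 animals, and the difference between groups of -0.35 for RT1-N1 (standard error 0.20) and -0.27 for RT1-N3 (standard error 0.18) had an exact permutation p of 0.143 and 0.229. Without occlusion 2 the difference of RT1-N1 was -0.14. RT1-T24-1 had -0.30, -0.85, -0.39 and 0.32 in the occlusion animals against -0.23, 0.64, -0.31 and -0.02 in the controls, low in occlusion 2 and high in occlusion 4 and control 2.

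**Figure D3:**
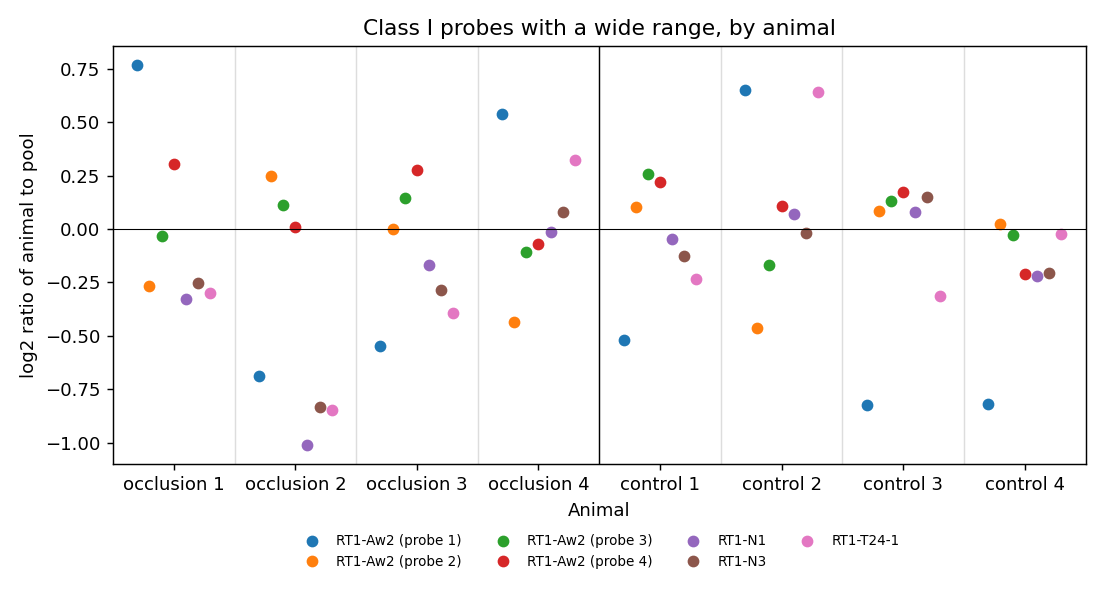
Log2 ratio to the pool (vertical axis) in each animal (horizontal axis) for the 4 RT1-Aw2 probes, RT1-N1, RT1-N3 and RT1-T24-1. The first RT1-Aw2 probe is at 0.54 or above in occlusion 1, occlusion 4 and control 2 and at -0.52 or below in the others, and RT1-N1, RT1-N3 and RT1-T24-1 are lowest in occlusion 2.

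Class II chains and the invariant chain were tested with 6 probes for 4 names, RT1-Da, RT1-Db1, RT1-Bb and Cd74. All 6 were lower under occlusion, with differences of -0.17 to -0.01, and 0 passed. Every one of them was highest in control 3, as were 23.0% of all tested probes with values in every animal. Without control 3 all 6 were higher under occlusion, with a median of 0.25 in place of -0.06. RT1-Da, the alpha chain of the rat DR-like molecule, gave -0.12, -0.28, 0.14 and 0.26 in the occlusion animals against -0.34, -0.46, 1.31 and -0.43 in the controls with its brighter probe. Control 3 was more than 1 log2 unit above every other animal, while the 4 occlusion values overlapped none of the 3 other controls. How many of all probes separate in this way without control 3 was not computed. The Cy5 intensity of this probe ran likewise, at 7.70, 7.31, 7.72 and 7.82 in the occlusion animals against 7.25, 7.11, 9.38 and 7.32 in the controls on the log2 scale.

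Cd74 had log2 ratios of -0.30, -0.56, -0.10 and 0.02 in the occlusion animals against -0.55, -0.36, 0.98 and -0.68 in the controls. The beta chain gene RT1-Db1 had 0.32, -0.34, -0.30 and -0.10 in the occlusion animals against -0.11, -0.25, 0.59 and -0.47 in the controls with the first probe. Its second probe had 0.12, -0.10, -0.23 and -0.24 in the occlusion animals against -0.45, -0.29, 0.72 and -0.39 in the controls. RT1-Bb, the beta chain of the DQ-like molecule, had -0.16, -0.14, -0.15 and -0.05 in the occlusion animals against -0.28, -0.05, 0.53 and -0.13 in the controls. In these 4 probes control 3 was the highest animal. The other 3 controls overlapped the occlusion animals for Cd74, the first RT1-Db1 probe and RT1-Bb, and lay below all 4 of them for the second RT1-Db1 probe. As for RT1-Da, the share of all probes that do so was not computed. A dimmer RT1-Da probe, with the spot of control 1 left out, was also highest in control 3, at 0.95.

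With all 8 animals the differences were -0.02 for RT1-Da (standard error 0.37), -0.08 for Cd74 (0.33), -0.04 and -0.01 for RT1-Db1 (0.23 and 0.24) and -0.15 for RT1-Bb (0.16). Without control 3, RT1-Da differed by 0.41 and the second RT1-Db1 probe by 0.27, and Cd74 differed by 0.30. None passed an adjusted p under 0.05, and the lowest was 1.0 (limma, Benjamini-Hochberg). Within slides, RT1-Da differed by -0.64 on the first, which holds control 3, and by 0.60 on the second, and Cd74 by -0.58 and 0.42.

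**Figure D4:**
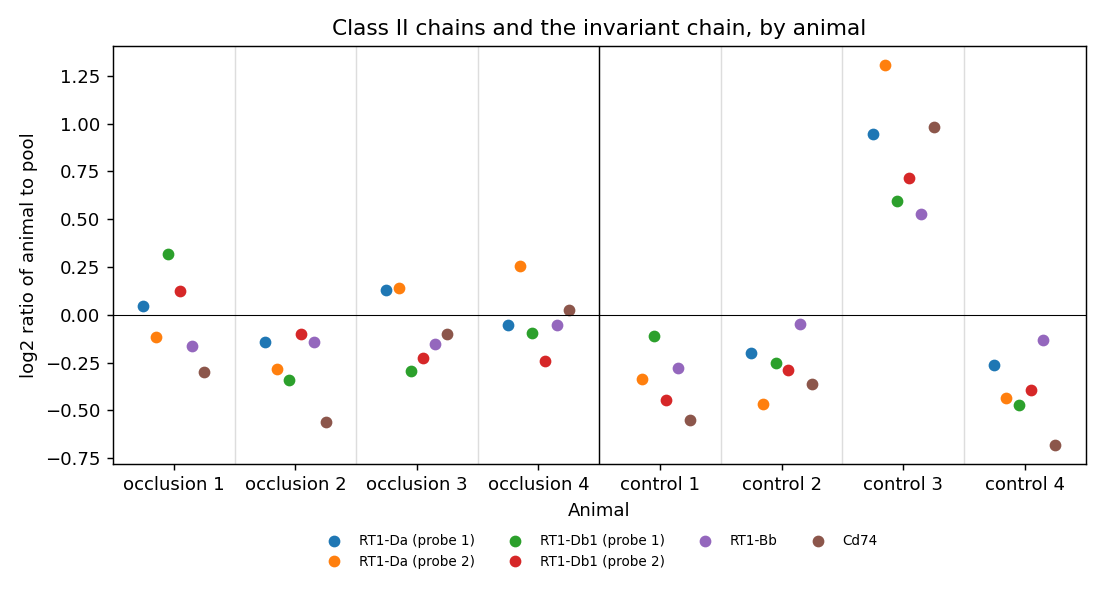
Log2 ratio to the pool (vertical axis) in each animal (horizontal axis) for the 6 tested probes of class II chains and Cd74. All points of control 3 lie between 0.53 and 1.31, above every other animal, and the other 7 animals lie between -0.68 and 0.32.

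Markers of other cells were read beside the class II values. Of 12 meningeal and fibroblast probes, such as Col1a2, which encodes a chain of collagen I, 11 were highest in control 3, against 23.0% of all tested probes. The list averaged 0.90 there against -0.48 to 0.01 in the other animals. Microglial markers (16 probes) averaged -0.05 in control 3 and -0.15 to 0.15 elsewhere, with 1 probe highest there. Markers of border macrophages and dendritic cells (8 probes) averaged -0.06 against -0.20 to 0.11, and endothelial markers (12 probes) -0.00061 against -0.19 to 0.06. The border macrophage and dendritic cell probes were not uniform, with 2 highest and 2 lowest in control 3. There Clec10a was at 0.50 and F13a1 at -1.19, and the -0.20 belonged to control 1, where a Lyve1 probe was at -2.06. Of 13 probes for markers of T, B and NK cells only 3 were above background on enough arrays, and these averaged 0.01 in control 3. Markers of choroid plexus and ependyma averaged -1.60 in control 3 against -0.82 to 1.06. Of their 8 probes 7 were lowest there, against 22.4% of all tested probes. The part of the meningeal, choroid plexus and regional markers in the class II values was not tested.

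Peptide supply and class I assembly had 11 tested probes for 8 names, 8 of them higher and 3 lower in the occlusion group (median difference 0.02). B2m, the light chain shared by all class I molecules, was higher with each of its 4 probes, by 0.02, 0.12, 0.11 and 0.27, with standard errors of 0.08, 0.14, 0.11 and 0.19. On the first slide alone the first and the third were lower, with differences of -0.07 and -0.09. Without control 1 the third was 0.0042, and without control 2 the fourth was 0.08 and the first -0.01. The largest difference had an exact permutation p of 0.2. The probe spotted 10 times gave -0.12, -0.02, -0.10 and 0.03 in the occlusion animals against -0.14, -0.16, 0.01 and -0.00066 in the controls, a narrow range with overlapping groups. The probe with the largest difference gave 0.17, 0.18, 0.36 and -0.15 in the occlusion animals against 0.16, -0.68, 0.18 and -0.18 in the controls, where control 2 was the lowest animal.

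Psmb8 and Psmb9, catalytic subunits that turn the proteasome into the immunoproteasome, differed by -0.09 and -0.04. Psmb8 had -0.0037, -0.06, -0.21 and 0.25 in the occlusion animals against -0.10, 0.23, 0.37 and -0.15 in the controls. Psmb9 had -0.0049, 0.14, -0.08 and 0.25 in the occlusion animals against 0.11, 0.27, 0.32 and -0.24 in the controls. The neighbouring genes shared their high animals, occlusion 4, control 2 and control 3, and in both control 4 was below the pool. Without control 3 they differed by 0.0014 and 0.03. The third immunoproteasome subunit, Psmb10, differed by 0.0043.

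Tap1 and Tap2 encode the subunits of the peptide transporter. Tap1 had -0.19, -0.03, -0.40 and -0.23 in the occlusion animals against 0.01, -0.15, -0.22 and -0.14 in the controls, a difference of -0.09 with overlapping groups. Tap2 had positive log2 ratios in all 7 animals with a usable spot. They were 1.40, 1.39, 0.82 and 0.76 in the occlusion animals against 1.11, 0.76 and 0.84 in controls 2 to 4. The pool was made of the same animals, so this shared shift was not read as a level. The groups differed by 0.19 with a standard error of 0.19. Tapbp, or tapasin, which holds the heavy chain at the transporter, differed by 0.02 and its relative Tapbpl by 0.06.

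Interferon regulatory factors were tested with 7 probes for 6 names, 1 higher and 6 lower, with a median of -0.03. Irf7, the factor that amplifies type I interferon, gave -0.15, -0.10, -0.09 and -0.24 in the occlusion animals against 0.58, 0.35, 0.06 and 0.01 in the controls. Every occlusion animal was lower than every control, with control 1 the highest and control 2 next. The difference was -0.39 with a standard error of 0.13, an unadjusted limma p of 0.0127 and an exact two-sided permutation p of 0.0286, the lowest value possible here. It did not pass, at an adjusted p of 0.975 (limma, Benjamini-Hochberg). On the first slide the difference was -0.16 and on the second, with controls 1 and 2, it was -0.63. Without control 1 it was -0.28 and without control 3 -0.46.

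Irf1, which carries the response to interferon gamma to class I and immunoproteasome genes, had -0.27, -0.02, -0.05 and 0.04 in the occlusion animals against -0.16, -0.03, 0.19 and 0.13 in the controls and differed by -0.11 (standard error 0.10). Irf3, the factor that starts type I interferon synthesis and is present before any stimulus, had -0.11, -0.01, 0.09 and -0.01 in the occlusion animals against -0.02, -0.15, -0.12 and -0.07 in the controls. Its values varied little, with a difference of 0.08. Irf2bp1, a corepressor that binds Irf2, had negative log2 ratios in all 8 animals, from -0.70 to -0.38, and differed by 0.00077. As for Tap2, that shared shift was not read as a level.

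STAT factors had 10 tested probes for 7 names, 6 higher and 4 lower, with a median of 0.04. Without control 3, 5 were higher and the median was -0.0026. Stat5a, which signals for prolactin, growth hormone and several cytokines, gave 0.21, 0.01, 0.03 and 0.01 in the occlusion animals against -0.03, -0.60 and -0.18 in controls 2 to 4, the spot of control 1 being left out. The groups did not overlap, though only the step from 0.01 to -0.03 separated them. The difference was 0.34 with a standard error of 0.14 and an unadjusted limma p of 0.0412 (exact permutation p = 0.0286, the smallest that 4 against 3 allow). Control 3 was the lowest animal, and without it the difference was 0.17. With slide as a block it was 0.32. Its unadjusted limma p was above 0.05 in both cases.

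Stat2, which carries the type I interferon signal, differed by 0.02, and the probes of Stat3, the mediator of interleukin 6 signalling, by -0.04 and 0.07. Stat6, which answers to interleukin 4, differed by -0.08. Stat4, the STAT of interleukin 12 signalling, stood at -0.87 in control 1, and the other 7 animals lay from -0.08 to 0.16.

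Interferon-induced effectors were tested with 20 probes for 18 names. In the occlusion group 4 were higher and 16 lower, with a median of -0.08, and 0 passed. Without control 1, 10 were higher and 10 lower with a median of -0.01. On the first slide, without control 1 among its animals, 11 were higher and 9 lower. Of the 20 probes, 8 (40.0%) were highest in control 1, where 9.64% of all tested probes with values in every animal had their highest value. These 8 included all 3 probes of Ifi44. In control 1, 2 of the 20 (10%) were lowest, against 12.8% of all probes. In control 3, 6 (30%) were highest and 5 (25%) lowest, against 23.0% and 22.4%. Control 1 had the lowest share of spots above background (68.3%) and the most outlier spots (853). The part of these in the values of control 1 was not tested.

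Oas1, an enzyme that senses double-stranded viral RNA and activates RNase L, had 0.12, -0.26, -0.12 and -0.29 in the occlusion animals against 1.09, 0.20, -0.44 and -0.38 in the controls. Control 1 was at 1.09 and no other animal was above 0.20. In Cy5 alone its intensity was 8.80, 8.49, 8.38 and 8.15 in the occlusion animals against 9.69, 8.86, 7.99 and 8.28 in the controls on the log2 scale, again highest in control 1. Its neighbour Oas1i had 0.15, -0.21, -0.26 and -0.47 in the occlusion animals against 0.59, -0.02, -0.57 and -0.22 in the controls. Mx2, an interferon-induced GTPase, had -0.11, -0.43, -0.43 and -0.37 in the occlusion animals against 0.65, 0.12, -0.83 and -0.20 in the controls. In all these control 1 was highest, with control 3 the lowest animal for each. The differences were -0.26 for Oas1, -0.14 for Oas1i and -0.27 for Mx2, with standard errors of 0.30, 0.23 and 0.26. Without control 1 they were 0.07, 0.07 and -0.03. Without control 3 they were -0.44, -0.32 and -0.52.

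Ifi44, an interferon-induced cytoplasmic protein gene, was measured with 3 probes that ran together. The first had 0.40, 0.06, -0.18 and -0.13 in the occlusion animals against 0.44, 0.09, 0.05 and -0.07 in the controls. Control 1 was highest and occlusion 1 next on each probe, and occlusion 3 and occlusion 4 were the lowest pair. The differences were -0.09, -0.15 and -0.09. Oasl2, an Oas-like antiviral protein gene, did not share the high value of control 1, at -0.02, and was highest in control 2.

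**Figure D5:**
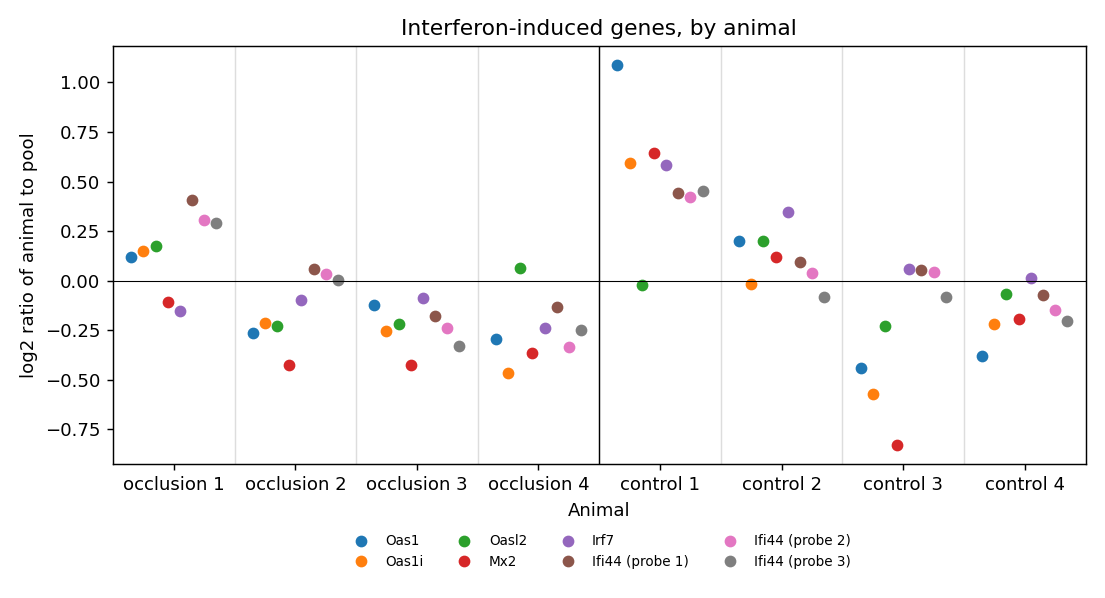
Log2 ratio to the pool (vertical axis) in each animal (horizontal axis) for Oas1, Oas1i, Oasl2, Mx2, Irf7 and the 3 Ifi44 probes. In control 1 all but Oasl2 lie between 0.42 and 1.09, above every other animal; in control 3, Oas1, Oas1i and Mx2 lie between -0.83 and -0.44.

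Members of the Ifit and Ifitm families differed among themselves. Ifit3 had 0.02, -0.27, -0.55 and -0.25 in the occlusion animals against -0.37, -0.30, 0.60 and -0.22 in the controls, with control 3 high and the next animal at 0.02. Ifit2 had -0.22, -0.12, 0.30 and 0.21 in the occlusion animals against 0.29, 0.12, -1.07 and -0.10 in the controls, with control 3 low and the next animal at -0.22. Ifit3 and Ifit2, members of the same family, stood at opposite ends in the same animal. Ifit1 was lowest in occlusion 1, at -0.44, and lay between -0.02 and 0.38 elsewhere. Without control 3 the differences of Ifit3 and Ifit2 went from -0.19 to 0.03 and from 0.23 to -0.06.

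Ifitm1 and Ifitm2, membrane proteins that block the entry of viruses, were highest in control 3, at 0.67 and 0.71, and at most 0.30 in the other animals. Ifitm3 had -0.08, -0.01, -0.10 and -0.05 in the occlusion animals against -0.00026, -0.03, 0.05 and -0.22 in the controls, also highest in control 3 but within a narrow range. Ifitm6 was lowest in control 3, at -0.49. Between groups Ifitm1, Ifitm2 and Ifitm3 differed by -0.09, -0.07 and -0.01, and without control 3 by 0.10, 0.12 and 0.02. Among the remaining effectors, the GTPase gene Gbp2 differed by 0.17, Ifi27l by -0.06, the lysosomal thiol reductase gene Ifi30 by -0.02, Ifi35 by -0.08 and the GTPase gene Ifi47 by 0.07, each with a standard error between 0.08 and 0.15.

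Genes of the same pathways outside the name rule were read from a pair of lists. Of 16 tested probes, for 13 of 18 other antigen presentation genes, 10 were higher and 6 lower, 0 had an unadjusted p under 0.05, and the median difference was 0.06, or 0.03 without control 3. The smallest p belonged to Canx, the chaperone calnexin, at 0.36 (0.24 without control 3), and to Pdia3, a thiol oxidoreductase of class I assembly, at -0.22. Of 35 tested probes, for 27 of 39 other interferon pathway genes, 14 were higher and 21 lower, with a median of -0.02. At an unadjusted p under 0.05, where 3.1% of all tested probes fell, there was 1. That was Usp18, the protease that removes Isg15 from proteins, with -0.34, -0.58, -0.42 and -0.21 in the occlusion animals against 0.21, 0.31, -0.19 and -0.27 in the controls. Controls 1 and 2 were high and the occlusion animals low, but control 4 lay among the latter, and the difference was -0.40 with a standard error of 0.15. Rsad2, or viperin, came next with a difference of -0.32 for its brighter probe and 0.03 for the other. On the brighter probe occlusion 1 was at -0.70, the other occlusion animals at -0.03 to 0.06 and the controls at 0.04 to 0.36. Isg15, a ubiquitin-like protein that interferon induces, had -0.19, -0.39, -0.06 and -0.36 in the occlusion animals against 0.93, 0.02, -0.61 and -0.23 in the controls. As for Oas1 and Mx2, it was highest in control 1 and lowest in control 3, and it differed by -0.28, or by -0.49 without control 3.

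Not all members could be read in this tissue. Of the 20 probes left untested, 12 were not well above background on any array and the other 8 on 1 to 3 arrays. The former included RT1-M2, RT1-T24-2, RT1-DOa, RT1-DOb, Irf4, a factor of lymphoid cells, Gbp4, Gbp5, Oas1b and Oasl1. RT1-Ba, the alpha chain that pairs with RT1-Bb, was above background on 0 arrays with the first probe and on 1 with the second. Mx1 was above background only in 1 control, and a second RT1-Bb probe on 3 arrays. Irf8, Irf9, RT1-DMa and RT1-DMb were matched to none of the member probes. Probes with names outside the rule were not searched for them. Of the 13 names with several tested probes, 5 had probes of opposite sign, among them RT1-Aw2, RT1-CE5, RT1-Cl and Stat3. On the rn3 map of the array design, 43 member probes lay on chromosome 20, which carries the RT1 complex, and 3 more on its unplaced sequence.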

How the data were processed

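Medial thalamus RNA of 8 rats, 4 per group, was hybridised on 2-colour arrays, 1 animal per array, on 2 slides that each held 2 animals of each group. Spot intensities and their local backgrounds were deposited as the scanner software gave them (Agilent Feature Extraction 9.5.1.1, per the file headers), and well-above-background calls come from the same files. The log10 ratios in those files were made by the same software, per the file headers, and the value table of the series, also deposited as log10 ratios, matched them within 1% at all 45018 spots of every array. From the mean intensities, background was corrected with normexp (offset 50), ratios were normalised within each array by loess, and spots of a probe were averaged (limma 3.58.1, R 4.3.3, version 1.17.8 of the data.table package). Figures were drawn with matplotlib 3.10.9. Outlier spots were left out. Spots with a non-uniform local background were also left out before normexp. That change was made after a first run had been seen, because on occlusion 3 such spots lowered the standard deviation of the log2 ratios to 0.16 from 0.267. The earlier way is kept as an alternative. A probe was tested if its Cy5 signal was well above background on 4 arrays or more, with no further covariate, by limma's moderated test on log2 ratios with Benjamini-Hochberg adjustment over all tested probes. The computation was tested on simulated data.

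Exact permutation tests were two-sided, and with 4 against 4 animals the smallest p is 0.0286. The arrays' number limits the precision. A limma p sets the group difference against the spread between arrays of 1 animal each, moderated over the probes. An exact permutation p ranks the difference among the possible assignments of these animals to groups. Probe names are those of the array design. 98 of 105 member probes were matched to a current symbol in a RefSeq gene table. The members and gene lists were chosen with earlier results of these data known. Genes described are a panel of well-known members, those with the smallest p in each role, and those whose groups do not overlap. RT1-N3, RT1-T24-1, RT1-M6-2, RT1-Ke4, Oas1i, Oasl2, Ifitm6, Tapbpl and Isg15 were added after their values were seen. Alternatives were other background corrections, normalisations, filters and weights, the Cy5 channel alone, the deposited ratios, a single probe per name, slide or replicate number as a block, slides taken singly, and animals left out in turn. Whether replicate numbers pair the animals could not be told from these data. A few members enter the counts and medians but are not reported singly here.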

Additional observations from a re-analysis of the deposited data

Results flagged for a closer look

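Among 125 sets of 4 values, each a probe or a role mean in 1 group, 10 had an animal far from the other 3. Chance gives about 1 in 20, or 6.25 here, and 6 of the 10 were in control 3. Sets share probes and animals, so these counts are not independent.

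In control 3 the mean over class II probes was 0.84 on the log2 ratio scale, with RT1-Da at 1.31 and the second RT1-Db1 probe at 0.72. The mean over peptide supply probes was 0.15 in the same animal, Ifitm1 was at 0.67 and Ifit3 at 0.60. Regional and meningeal markers also stood apart in this animal, as the report gives, and their part in these values was not tested.

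In occlusion 1 Stat5a was at 0.21, Ifit1 at -0.44, and the mean over effector probes at -0.016, the highest of its group. In control 2 the second RT1-Aw2 probe was at -0.46.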

How the results depend on the processing

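At an adjusted p under 0.05, 0 members and 0 of all probes passed under each of the 23 alternatives (limma, Benjamini-Hochberg). Members with an unadjusted p under 0.05 numbered 3, and were 1 with the scanner log ratio and 1 with the deposited table (1.18%, against 3.59% of all probes in both). They were 6 with Cy5 alone (7.06% against 2.77%) and 10 of 81 on slide 2 alone (12.3% against 2.67%). With an animal left out they were 1 to 5, while those of all probes ran from 721 to 1564. On slide 1 alone the median log2 difference was 0.082 for class I, -0.16 for interferon regulatory factors, 0.030 for effectors and 0.15 for STAT factors. On slide 2 alone it was -0.070 for class I, 0.086 for interferon regulatory factors, 0.12 for peptide supply and -0.11 for STAT factors. The median for interferon regulatory factors was also -0.22 with the scanner log ratio and with the deposited table, and -0.10 to -0.013 with an animal left out. The class II median ran from -0.19 to 0.25 with an animal left out. The cause was not tested.

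With the replicate number as a block, 2 members had an unadjusted p under 0.05. Animals of the same number correlated at -0.16, 0.09, -0.14 and 0.05 and none matched its own number best. Animals of the same number always lay on different slides, and each best match was on the same slide. These correlations therefore cannot tell whether the numbers pair the animals. Of 58 described probes, 12 kept their sign under every alternative that gave a value, among them Irf7, RT1-CE12 and Stat5a, and the smallest adjusted p of any was 0.865. Of their 1308 results, 45 moved beyond the spread between animals and 154 took the other sign. A signal of 3.65 to 4.67 times background limits the dimmest probes.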
